A study of Canis lupus familiaris with 30 samples.

Results

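A list of 42 canine DNA damage repair and checkpoint genes was examined in lymphoma samples of 15 dogs. The list was set by gene name, with earlier results of these data known. A member was kept when the study's supplementary tables paired its symbol with an Ensembl gene ID of CanFam3.1. This gave 29 of the 42 genes, out of 32704 gene IDs. Homologous recombination was represented by BRCA2, RAD51AP1, BARD1, BLM and XRCC2. The Fanconi anemia (crosslink) class held FANCA, FANCD2, FANCI, FANCL and FANCM, mismatch repair held MSH3, MSH6, PMS2 and EXO1, and end joining held XRCC4, XRCC5, XRCC6, PRKDC and LIG4. Base excision and single-strand break repair held XRCC1, PARP1 and OGG1, nucleotide excision held ERCC1, ERCC3 and ERCC4, and damage sensing and checkpoint signalling held ATRIP, CHEK1, TOPBP1 and RAD50. The other 13 were not analysed here, and these were BRCA1, RAD54L, RAD54B, PALB2, UNG, ERCC2, XPA, XPC, DDB2, ATM, ATR, CHEK2 and NBN.

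Enlarged lymph nodes were sampled by fine needle aspiration before treatment (initial timepoint) and 6 weeks into treatment with CHOP (cyclophosphamide, doxorubicin, vincristine and prednisone), giving 30 RNA-Seq libraries. All dogs had lymphoma and were treated, a single earlier injection of prednisone was permitted, and no untreated dogs were followed. The labels gave a B-cell immunophenotype for 7 dogs, a T-cell immunophenotype for 3 and none for 5. Aspirates are mixtures of tumor and other node cells, so that in these bulk samples fewer cells of a type cannot be told apart from less RNA per cell.

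Cells use separate routes for separate kinds of DNA damage. Recombination copies from the sister chromatid and is mostly active after DNA replication, the Fanconi anemia pathway unhooks crosslinks such as those made by cyclophosphamide metabolites, and mismatch repair corrects replication errors. End joining religates broken ends at any cell cycle stage and, in developing lymphocytes, completes antigen receptor gene rearrangement, while the excision pathways replace damaged bases or nucleotides. Many recombination, crosslink and checkpoint genes are transcribed mainly in cycling cells.

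Levels are given as FPKM, the authors' expression value scaled by transcript length and sequencing depth, so that genes can be compared. RAD50, a subunit of the complex that senses broken ends, had the highest mean FPKM over the 30 libraries (83.9), followed by MSH6 at 81.9, PRKDC at 74.7, TOPBP1 at 50.2 and PARP1 at 41.1. The ranges of the leading genes overlapped widely between libraries. FANCA (3.99) and the nuclease subunit ERCC1 (2.90) were the lowest of the 28 members that passed the filter of a mean FPKM above 1. OGG1, the glycosylase that removes oxidized guanine, had a mean of 0.771 FPKM and was not tested. ERCC1 was listed at 0 FPKM with a read count of 0 in the six-week library of dog 036, the shallowest library, where a count of 0 allows up to 3 reads, for counting error only.

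Some properties of the libraries bear on the values. Total counts ran from 4318394 to 43413353 per library, and the six-week library of dog 033 had a summed FPKM of 2.25e+06 against 769269 to 1.54e+06 in the other libraries. The deposited read counts followed the FPKM values in 9 dogs (Spearman correlation across genes of 0.880 to 0.983) but not in dogs 024, 027, 028, 029, 030 and 035 (0.0868 to 0.117). FPKM values of all dogs were therefore used, and counts were used for the 9 dogs only. Marker genes were summarised as the mean of log2(FPKM+1) over a list, with 2 of 8 B-cell markers (PAX5 and CD22) and 6 of 10 T-cell markers having an ID. At the initial timepoint, dog 038, labelled T-cell, had a B-cell marker score of 6.09 and a T-cell marker score of 2.56, whereas the scores of the other T-cell dogs were 1.74 and 6.07 (dog 028) and 0.73 and 6.33 (dog 036). Dog 029, labelled B-cell, had high scores for both lists (4.89 and 5.88). No B-cell or T-cell marker was listed at 0 except ZAP70 in 1 library. Levels of T-cell and B-cell dogs at each timepoint are compared with and without dogs 029 and 038. Changes over 6 weeks are given with all labelled dogs, and signs that turned without dogs 029 and 038 are given further below.

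The first comparison asked whether the repair genes changed between the initial and the six-week timepoint in the same dogs. No member passed the limma test with the dog as a block (0 of 28 at a Benjamini-Hochberg adjusted p under 0.05, lowest 0.298), nor did any of the 14257 genes tested (0% higher and 0% lower). The members nevertheless leaned one way. A negative log2 fold change was found for 27 of 28 members, against 51.4% of all genes. At an unadjusted p under 0.05, 15 members were lower and 0 higher, against 5.13% of all genes lower and 7.65% higher. The median log2 fold change was -0.28 over the members and -0.01 over all genes. The members are co-expressed and are not independent of each other. They were also chosen with earlier results of these data known, so that this lean is not independent of the choice of the list. These adjusted p-values do not show that the genes were unchanged.

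Among the recombination genes, RAD51AP1 (ENSCAFG00000015342), a cofactor of DNA strand exchange, ranged from 9.60 to 72.9 FPKM with a median of 34.1 at the initial timepoint and from 8.19 to 65.6 with a median of 24.0 at 6 weeks. BRCA2 (ENSCAFG00000006383), which mediates the strand exchange step of recombination, ranged from 8.23 to 77.6 (median 32.0) and from 6.60 to 66.3 (median 23). The ranges of both timepoints overlapped almost completely, and each gene was lower at 6 weeks in 11 of 15 dogs. The log2 fold changes were -0.48 ± 0.15 (SE, n = 15 dogs, limma adjusted p = 0.300) for RAD51AP1 and -0.53 ± 0.17 (adjusted p = 0.303) for BRCA2. BARD1, the partner of BRCA1, was lower in 14 of 15 dogs. The class median was -0.42, and 4 of 5 members had an unadjusted p under 0.05.

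The crosslink genes had a class median of -0.41. FANCI (ENSCAFG00000011620), which is ubiquitinated with FANCD2 at stalled forks, had initial levels of 7.50 to 33.5 FPKM (median 21.2) and six-week levels of 6.24 to 31.1 (median 15.7), a log2 fold change of -0.41 ± 0.15 (SE, n = 15, limma adjusted p = 0.316). FANCM (ENSCAFG00000014062), the translocase that recognises the stalled fork, went from 3.79 to 30.2 (median 15.9) to 2.71 to 26.8 (median 9.69), with -0.52 ± 0.18 (adjusted p = 0.307). Both were lower in 11 of 15 dogs, and again the timepoints overlapped. FANCL, the ubiquitin ligase of the pathway, had a log2 fold change of -0.01 ± 0.08 and was lower in 9 of 15 dogs.

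In mismatch repair, MSH6 (ENSCAFG00000002664), which recognises mispaired bases, had levels of 50.9 to 124.5 FPKM (median 100.4) initially and 31.2 to 103.9 (median 75.5) at 6 weeks, with a log2 fold change of -0.36 ± 0.12 (SE, n = 15, limma adjusted p = 0.303). It was lower in 11 of 15 dogs. All 4 members of the class had negative values, with a median of -0.30. The end joining class had a median of -0.09. Its kinase PRKDC (ENSCAFG00000006555) ranged from 51.6 to 118.0 (median 82.9) and then from 29.1 to 99.1 (median 67.4), was lower in 12 of 15 dogs and had a log2 fold change of -0.40 ± 0.13 (adjusted p = 0.305). The other 4 end joining genes lay between -0.11 (XRCC5, which binds DNA ends with XRCC6) and 0.09 (XRCC4, the scaffold of ligase IV), the only positive value among the 28. LIG4 itself had -0.09 ± 0.14 and was lower in 7 of 15 dogs.

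For PARP1 (ENSCAFG00000016089), the polymerase that marks single-strand breaks, levels were 28.8 to 80.8 FPKM (median 43.5) initially and 14.9 to 59.1 (median 36.0) at 6 weeks. The log2 fold change was -0.42 ± 0.17 (SE, n = 15, limma adjusted p = 0.344), and 9 of 15 dogs were lower. ERCC3 (ENSCAFG00000004497), a helicase of the excision and transcription factor TFIIH, had -0.13 ± 0.12 (adjusted p = 0.655), and ERCC4 (ENSCAFG00000018827), the nuclease partner of ERCC1, had -0.14 ± 0.10 (adjusted p = 0.581). None of the 3 nucleotide excision genes had an unadjusted p under 0.05, and the class median was -0.13. In the checkpoint class, TOPBP1 (ENSCAFG00000006447), which activates the kinase ATR, ranged from 32.0 to 82.7 (median 57.2) and then from 24.7 to 73.2 (median 44.1), with -0.34 ± 0.10 (adjusted p = 0.298) and lower values in 14 of 15 dogs. RAD50 (ENSCAFG00000000867) had a smaller difference of -0.19 ± 0.08 (adjusted p = 0.344) and was lower in 11 of 15 dogs.

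**Figure D1:**
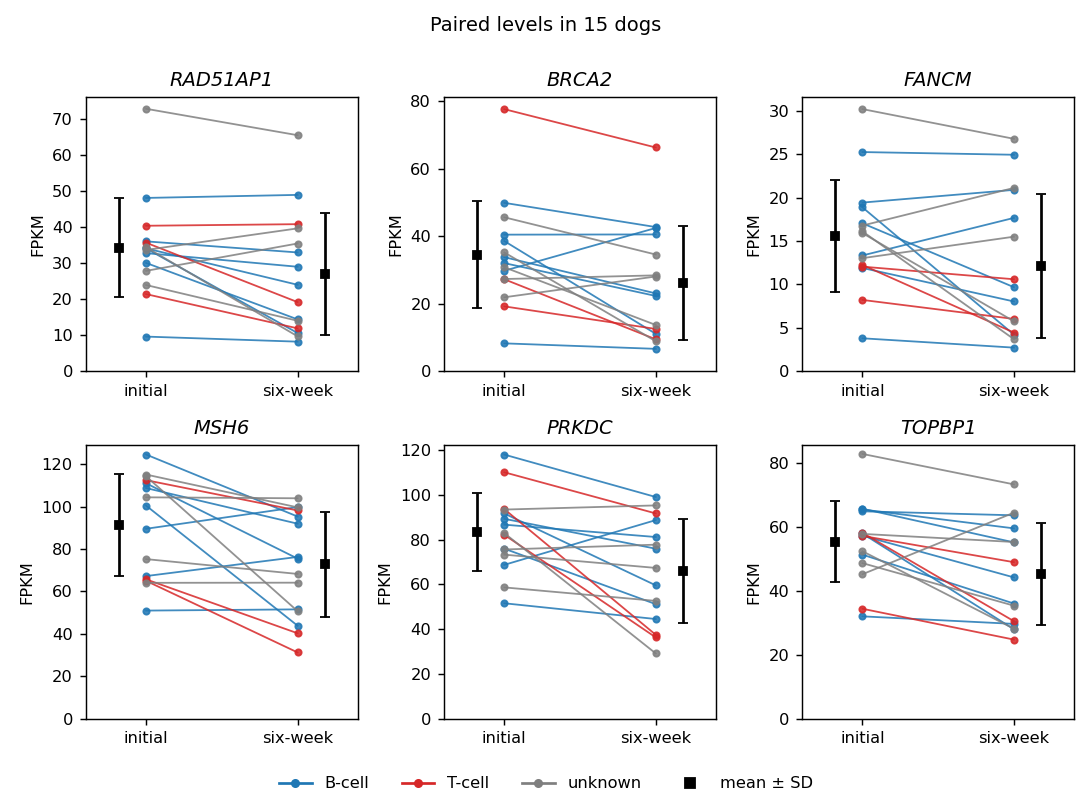
FPKM of 6 repair genes at both timepoints, with 1 line per dog coloured by immunophenotype and black squares for the mean ± SD of 15 dogs. RAD51AP1 and BRCA2 were lower at 6 weeks in 11 of 15 dogs each and TOPBP1 in 14 of 15, while the ranges of the timepoints overlapped.

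The classes were not compared with each other by a test, since their members share libraries. Averaged per dog, the recombination class was lower at 6 weeks in 13 of 15 dogs, from -1.33 in dog 025 to 0.37 in dog 024 on the log2 scale (mean -0.38, SD 0.47). The crosslink, mismatch, end joining and checkpoint classes were lower in 10 of 15 dogs each, the base excision class in 8 of 15 and the nucleotide excision class in 6 of 15. In dog 033, the median log2(FPKM+1) of all genes tested also went down, from 3.02 to 2.51. Its mean change over the members was -0.57, and the part of this general shift in it was not tested. The spread between dogs was as large as the mean change. Dogs 025 and 034 had recombination changes below -1.2, whereas dogs 024, 026, 027, 028, 029 and 037 lay between -0.11 and 0.37. In dogs 025 and 034, scores of other cells changed at the same time, by 3.6 and 2.2 for T-cell markers, 2.94 and 2.12 for macrophage markers, 3.96 and 2.90 for neutrophil markers and 2.37 and 2.40 for cytotoxic markers (each a mean of log2(FPKM+1) over a list). B-cell marker scores changed by -1.84 and -1.27, stromal and endothelial scores by 1.57 and 1.63, and plasma cell scores by 1.75 and 0.0661. The part of these markers in the values of both dogs was not tested.

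**Figure D2:**
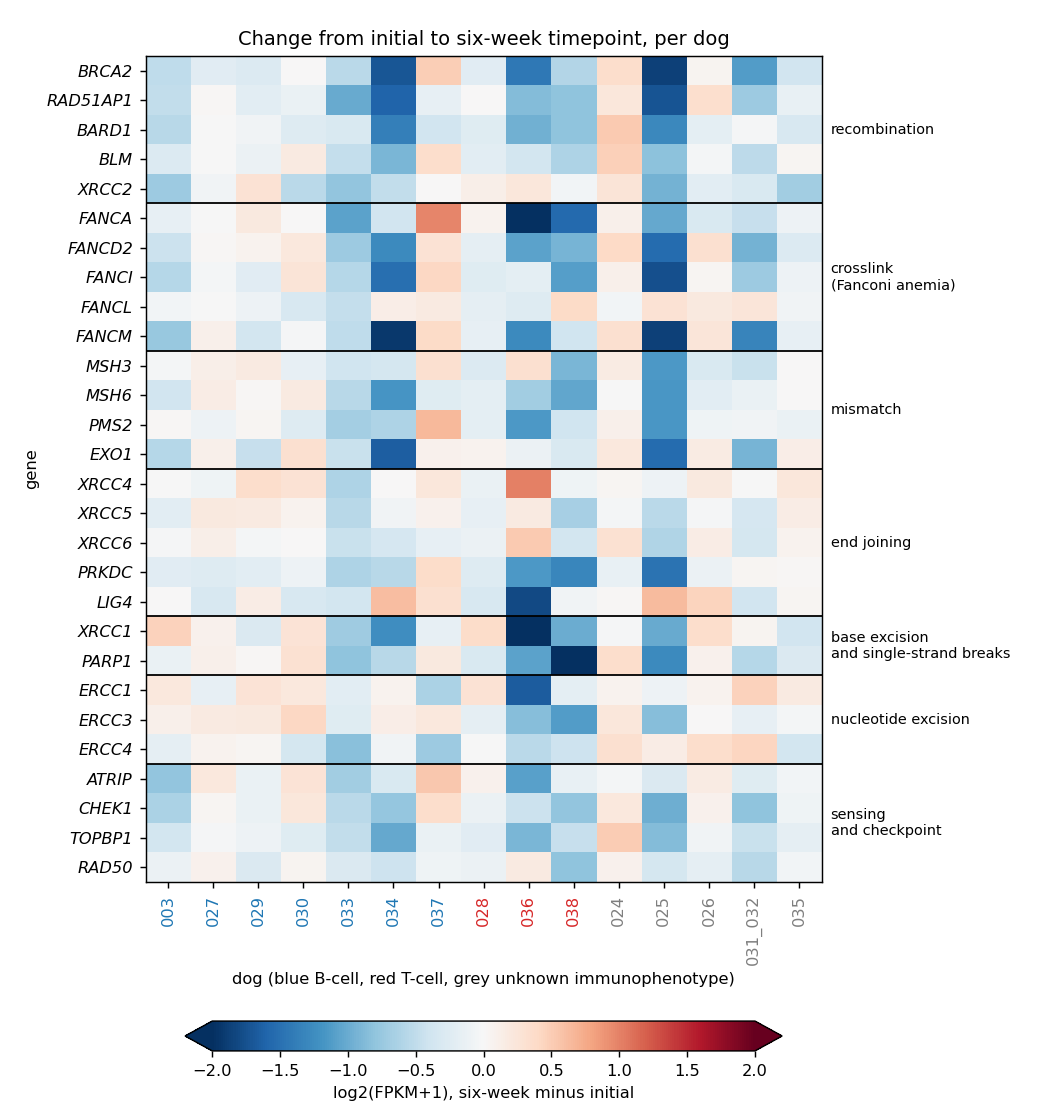
Change in log2(FPKM+1) from the initial to the six-week timepoint, with 1 row per gene grouped by class and 1 column per dog ordered by immunophenotype (blue lower, red higher at 6 weeks, colours capped at 2 in either direction). The recombination class was lowest in dogs 025 (mean -1.33) and 034 (-1.22), and the nucleotide excision class in dog 036 (-1.02). The value of dog 036 is a mean of 3 genes that includes ERCC1 at -1.66, which had a read count of 0 at 6 weeks.

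The comparison was repeated within the 9 dogs whose counts followed their gene IDs and within the other 6. This property of the files may coincide with other differences between the dogs, among them the outcome groups that the study formed, whose membership the labels do not give. In the 9 dogs, 26 of 28 members were negative (53.4% of all genes), 17 were lower at an unadjusted p under 0.05 (8.87% of all genes) and the median was -0.45, with 0 called by limma on FPKM (lowest adjusted p = 0.222). In the other 6 dogs, 13 of 28 were negative (40.3% of all genes), 0 were lower at an unadjusted p under 0.05 (1.37% of all genes) and the median was 0.01. When the difference in change was tested directly, 0 members and 0 genes passed (limma, lowest adjusted p = 0.455), with 11 members having a lower change in the 9 dogs at an unadjusted p under 0.05 against 8.18% of all genes.

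Read counts of the 9 dogs gave a result that depended on the tool. DESeq2 called 11 of 29 members lower at 6 weeks and 0 higher, against 2.62% of 16880 genes lower and 14% higher, and 26 of 29 had negative values (43.7% of all genes). They were BRCA2, RAD51AP1, BARD1, FANCA, FANCD2, FANCI, FANCM, MSH6, PARP1, CHEK1 (the effector kinase of ATR) and TOPBP1. BRCA2 had 479 to 14863 counts per library and a log2 fold change of -0.83 ± 0.27 (SE, DESeq2 adjusted p = 0.0221). RAD51AP1 had 79 to 1717 counts and -0.80 ± 0.23 (DESeq2 adjusted p = 0.00850). TOPBP1, with 964 to 20372 counts, had -0.54 ± 0.15 (DESeq2 adjusted p = 0.00796). None of the end joining or nucleotide excision genes was among the 11, but PRKDC had -0.56 ± 0.22 (DESeq2 adjusted p = 0.0621). BLM, XRCC2, MSH3, PMS2 and EXO1 of the other classes were not called either. The quasi-likelihood test of edgeR on the same counts called 0 of 29 members (0% of all genes), with 29 of 29 negative (51.5% of all genes), 21 lower at an unadjusted p under 0.05 (10.4% of all genes) and a lowest adjusted p of 0.0921.

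**Figure D3:**
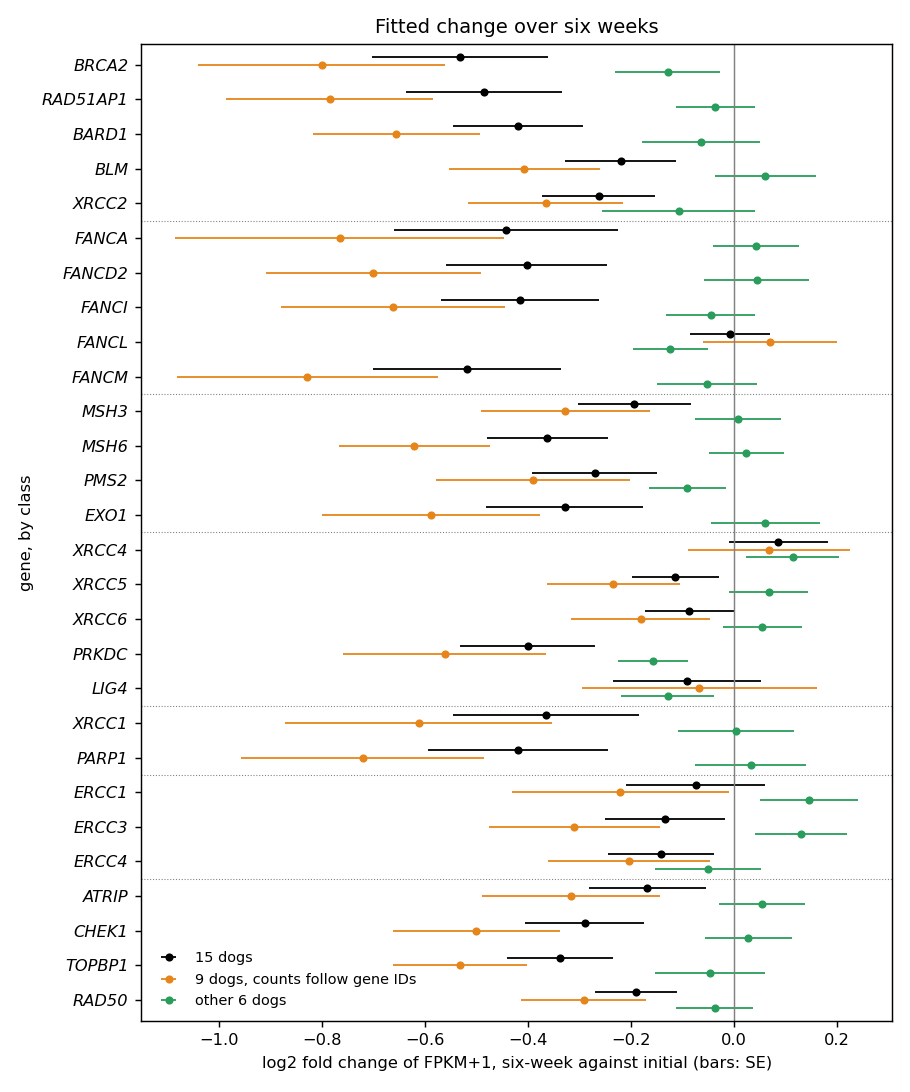
Log2 fold change of FPKM+1 from the initial to the six-week timepoint for 28 genes by class, with SE as bars, fitted in 15 dogs (black), in the 9 dogs whose counts followed their gene IDs (orange) and in the other 6 dogs (green). The orange points lay below 0 for 26 of 28 genes and the green points for 13 of 28.

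Other gene lists moved beside the repair genes. All 20 proliferation genes tested, among them MKI67, TOP2A and the MCM helicase, had negative values, 19 of them at an unadjusted p under 0.05 (median -0.45). The proliferation score, the mean of log2(FPKM+1) over the list, ran from 3.97 to 6.01 (median 5.43) initially and from 3.68 to 5.94 (median 5.12) at 6 weeks. Over the 15 dogs, the change of the recombination class and the change of this score had a Pearson correlation of 0.933 and a Spearman correlation of 0.914, and Pearson was 0.899 without dogs 025 and 034. Both were computed from the same libraries and share their depth and scaling. The crosslink (0.850), mismatch (0.868) and checkpoint (0.856) classes had Pearson correlations of similar size, with Spearman correlations of 0.896, 0.857 and 0.936. The base excision class had 0.664 and 0.814, and 0.691 as Pearson without the same dogs. Those of end joining (0.467 and 0.575) and nucleotide excision (0.301 and 0.361) were smaller. Without dogs 025 and 034, Pearson was 0.846 for crosslink, 0.782 for mismatch, 0.903 for checkpoint, 0.633 for end joining and 0.567 for nucleotide excision. The part of proliferation in the repair gene values was not tested.

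**Figure D4:**
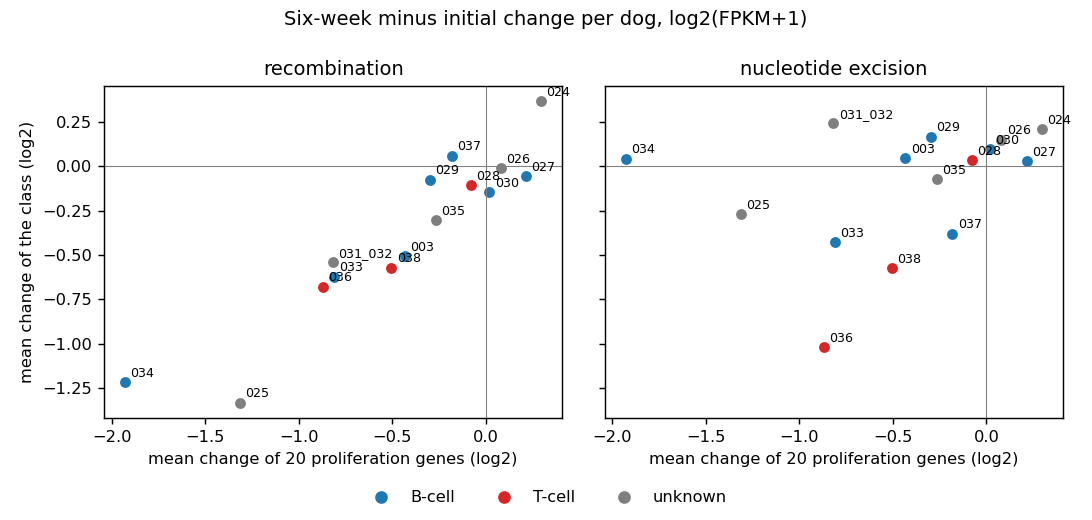
Change of the recombination class (left) and of the nucleotide excision class (right) against the change of 20 proliferation genes, both as six-week minus initial means of log2(FPKM+1), with 1 labelled point per dog coloured by immunophenotype. The points of the recombination class lay close to a line (Pearson 0.933), and those of the nucleotide excision class were scattered (0.301).

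Of 14229 genes outside the repair list, those with changes most like the recombination class over the 15 dogs were MCM10 (Pearson 0.965), ENSCAFG00000012260 (0.963), DSN1 (0.960), ENSCAFG00000006177 (0.946) and NUP37 (0.946). Single members followed the proliferation score to different degrees. RAD51AP1 (0.947) and FANCM (0.928) had the highest Pearson correlations, while XRCC4 (0.0723), LIG4 (-0.113) and FANCL (-0.205) had the lowest.

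Lists of markers of other cells were also examined. All 6 T-cell markers were positive over the 15 dogs (4 at an unadjusted p under 0.05), with scores of 1.40 to 6.33 (median 2.52) initially and 2.02 to 6.16 (median 3.11) at 6 weeks. The 2 B-cell markers were negative, with scores of 0.73 to 6.64 and then 1.37 to 6.36. All 3 macrophage and monocyte markers with an ID (of 9) and all 6 stromal and endothelial markers (of 8) were positive, with 1 and 3 at an unadjusted p under 0.05. So were the 2 cytotoxic markers (both at an unadjusted p under 0.05, median 0.73), the 2 neutrophil markers (0 at an unadjusted p under 0.05, median 0.60) and the 3 plasma cell markers (1 at an unadjusted p under 0.05, median 0.28). None of these markers was called. The change of the macrophage list and that of the recombination class had a Pearson correlation of -0.637 and a Spearman correlation of -0.439, and Pearson was -0.429 without dogs 025 and 036. For the T-cell list these were -0.570, -0.339 and, without dogs 025 and 034, -0.0263. The part of these cells in the repair gene values was not tested.

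A wider list of 63 repair genes outside the members, of which 37 were tested, had negative values for 36 genes and 13 lower at an unadjusted p under 0.05, with a median of -0.19 and 0 called. Among the genes with the smallest p-values was RPA1, a subunit of the protein that coats single-stranded DNA, with a log2 fold change of -0.34 ± 0.10 (SE, limma adjusted p = 0.298). CLSPN, which links ATR to CHEK1, had -0.52 ± 0.17 (adjusted p = 0.303), and the helicase BRIP1 had -0.43 ± 0.14 (adjusted p = 0.305).

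The change over 6 weeks was then fitted for each immunophenotype. No member passed in the B-cell dogs (0 of 28, and 0% of all genes in either direction), where 25 of 28 were negative (49.2% of all genes), 4 were lower and 0 higher at an unadjusted p under 0.05 (2% and 1.84% of all genes) and the median was -0.19. RAD51AP1 was lower in 6 of 7 B-cell dogs with -0.51 ± 0.23 (SE, limma adjusted p = 0.935), TOPBP1 was lower in 7 of 7 with -0.34 ± 0.15, and ERCC4 was lower in 5 of 7 with -0.29 ± 0.14. ERCC3 had 0.14 ± 0.14 and was higher in 6 of 7. The dogs of unknown immunophenotype also gave 0 calls (0% of all genes), with 23 of 28 negative (44.3% of all genes), 0 lower and 0 higher at an unadjusted p under 0.05 (0.526% and 4.03% of all genes) and a median of -0.27. BRCA2 had -0.60 ± 0.31 and FANCM -0.56 ± 0.33 in these 5 dogs, and both were lower in 3 of 5. Without dog 025 these values were -0.28 and -0.24 and the median was -0.05, so that they rested largely on that dog.

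In the 3 T-cell dogs, 0 of 28 members passed (0% of all genes, lowest member adjusted p = 0.122), 25 were negative (56.9% of all genes) and 10 were lower and 0 higher at an unadjusted p under 0.05 (10.5% and 9.55% of all genes), with a median of -0.53 against -0.09 for all genes. FANCA, a scaffold of the crosslink core complex, had 7.71, 12.6 and 6.42 FPKM initially in dogs 028, 036 and 038 and 8.10, 0.831 and 1.51 at 6 weeks. The value of 0.831 in dog 036 rested on 17 reads in the shallowest library. PARP1 had 37.7, 52.2 and 80.8 initially and 30.3, 24.5 and 14.9 at 6 weeks. ERCC3 had 18.9, 25.7 and 32.3 initially and 16.5, 13.7 and 14.4 at 6 weeks. PARP1 and ERCC3 were lower in every T-cell dog, and FANCA was lower in dogs 036 and 038 only. Their log2 fold changes were -1.25 ± 0.34, -0.72 ± 0.21 and -1.46 ± 0.42 for PARP1, ERCC3 and FANCA (SE, limma adjusted p = 0.122, 0.124 and 0.123). PRKDC, at -0.91 ± 0.27, was lower in 3 of 3. Without dog 036, the log2 fold change of FANCA was -0.75.

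Without dog 028, limma called 5 members lower in the remaining T-cell dogs (FANCA, PRKDC, XRCC1, PARP1 and ERCC3), against 5.19% of all genes lower and 5.27% higher, so that this result depended on dog 028. The markers of dogs 036 and 038 moved at the same time. In dog 036 the B-cell score went from 0.73 to 4.25 and the T-cell score from 6.33 to 4.85, while the macrophage score changed by 2.29 and the stromal score by 1.44. In dog 038 the B-cell score went from 6.09 to 4.49 and the T-cell score from 2.56 to 3.93, with changes of 1.85 and 1.88 for macrophages and stroma. In dog 028 the B-cell and T-cell scores were 1.37 and 6.16 at 6 weeks against 1.74 and 6.07 initially, with changes of 1.36 and 0.38 for macrophages and stroma. The part of these markers in the T-cell values was not tested.

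The difference in change between T-cell and B-cell dogs was tested as an interaction. It gave 0 of 28 members (0% of all genes), with 23 of 28 negative (55.2% of all genes) and a median of -0.24. At an unadjusted p under 0.05, 4 were lower in T-cell dogs and 0 higher (8.09% and 7.25% of all genes). ERCC3 (-0.86 ± 0.25, limma adjusted p = 0.196), PARP1 (-1.12 ± 0.40, adjusted p = 0.242), FANCA (-1.40 ± 0.50, adjusted p = 0.242) and LIG4 (-0.74 ± 0.34, adjusted p = 0.318) were the 4. Without dog 028, FANCA, PARP1 and ERCC3 passed, against 1.96% of all genes lower. The sizes also depended on the other T-cell dogs, with FANCA at -0.69 and LIG4 at -0.21 without dog 036 and PARP1 at -0.56 without dog 038.

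At the initial timepoint, T-cell and B-cell dogs were compared before any CHOP was given. With all labelled dogs, 0 of 28 members passed the limma test (0.105% of all genes higher in T-cell dogs and 0.238% lower), while 3 were higher and 2 lower at an unadjusted p under 0.05 (9.64% and 12.1% of all genes). Negative differences were found for 16 of 28 (52.6% of all genes). LIG4 (ENSCAFG00000006031), the ligase that seals end joining, had 97.8, 107.9 and 22.9 FPKM in T-cell dogs 028, 036 and 038, against 14.3 to 34.3 (median 17.8) in 7 B-cell dogs. Dogs 028 and 036 lay above every B-cell dog, and dog 038 lay within the B-cell range. The log2 difference was 1.55 ± 0.40 (SE, limma adjusted p = 0.0681). Without dogs 029 and 038 it was 2.37 ± 0.27 (adjusted p = 4.73e-05).

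FANCA (ENSCAFG00000019813) had 7.71, 12.6 and 6.42 FPKM in T-cell dogs and 2.42 to 6.17 (median 3.19) in B-cell dogs, and was the only member whose groups did not overlap at the initial timepoint (4.36% of all genes did not). Its log2 difference was 1.05 ± 0.27 (limma adjusted p = 0.0680), and 1.16 ± 0.29 (adjusted p = 0.0131) without dogs 029 and 038. XRCC1 (ENSCAFG00000004746), the scaffold of single-strand break repair, had 29.3, 40.9 and 19.4 against 8.92 to 24.7 (median 19.6), a difference of 0.71 ± 0.28 (adjusted p = 0.161). MSH3 (ENSCAFG00000008788), which recognises small insertion and deletion loops, was on the other side with 12.9, 15.3 and 32.5 in T-cell dogs and 24.4 to 49.5 (median 33.8) in B-cell dogs, a difference of -0.84 ± 0.27 (adjusted p = 0.105). XRCC6 was lower in the same sense (-0.41 ± 0.16, adjusted p = 0.162).

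Without dogs 029 and 038, limma called 4 members higher (LIG4, FANCA, FANCL and XRCC1) and 2 lower (MSH3 and XRCC6) in the 2 remaining T-cell dogs, against 11.6% of all genes higher and 12.6% lower. MSH3 then had -1.31 ± 0.24 (adjusted p = 0.00198) and FANCL 1.24 ± 0.23 (adjusted p = 0.00240). The share of members called was thus near that of all genes. Recombination, checkpoint and nucleotide excision genes gave no call in either fit, and BRCA2 differed by 0.20 ± 0.47 with all labelled dogs.

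At 6 weeks, 0 of 28 members passed (0% of all genes) between T-cell and B-cell dogs, with 1 higher and 3 lower at an unadjusted p under 0.05 (3.18% and 5.56% of all genes). Negative differences were found for 23 of 28 (59% of all genes). The member higher at an unadjusted p under 0.05 was FANCL, with 21.2, 18 and 8.21 FPKM in dogs 028, 036 and 038. B-cell dogs had 6.38 to 10.5 (median 9.41), and the log2 difference was 0.71 ± 0.27 (SE, limma adjusted p = 0.539). MSH3 had 10.5, 19.4 and 16.8 FPKM in dogs 028, 036 and 038 against 25.2 to 48 (median 32.9) in B-cell dogs, without overlap, and a log2 difference of -1.08 ± 0.30 (SE, limma adjusted p = 0.539). ERCC3, with 16.5, 13.7 and 14.4 against 18 to 29.7 (median 23.7), did not overlap either (1.82% of all genes did not) and differed by -0.68 ± 0.24 (adjusted p = 0.539). LIG4 in dog 028 was 77.8, but 30.3 in dog 036 and 21.8 in dog 038, against 13.6 to 37.9 (median 18.1) in B-cell dogs, and FANCA overlapped as well. Without dogs 029 and 038, limma called 0 of 28 members (0.0421% of all genes higher and 0.0351% lower). MSH3 then differed by -1.20 ± 0.38 (limma adjusted p = 0.262), ERCC3 by -0.66 ± 0.30 (adjusted p = 0.409) and LIG4 by 1.32 ± 0.44 (adjusted p = 0.280). FANCL had the lowest adjusted p of the members in this fit, with a difference of 1.11 ± 0.26 (limma adjusted p = 0.159). The comparisons at both timepoints use the same dogs and are not independent of each other.

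**Figure D5:**
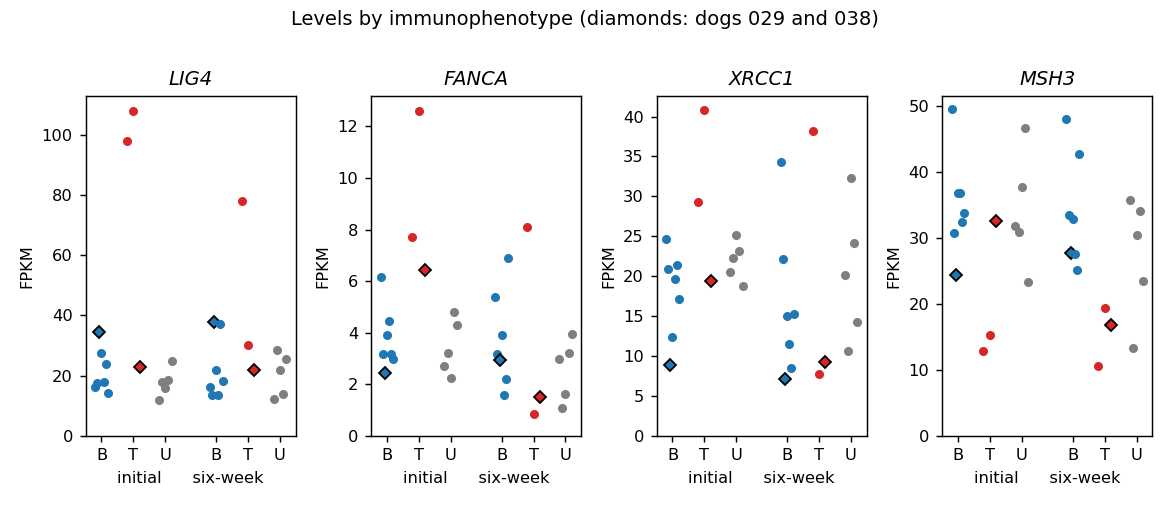
FPKM of LIG4, FANCA, XRCC1 and MSH3 at both timepoints in B-cell (B), T-cell (T) and unknown (U) dogs, with 1 point per library and black-edged diamonds for dogs 029 and 038. At the initial timepoint, dog 029, labelled B-cell, had high scores for both marker lists. Dog 038, labelled T-cell, had a high B-cell score and a low T-cell score. At the initial timepoint LIG4 was 97.8 and 107.9 in T-cell dogs 028 and 036. It was 22.9 in T-cell dog 038, within the B-cell range of 14.3 to 34.3.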

How the data were processed

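RNA was sequenced from aspirates of 15 dogs at the initial and the six-week timepoint. The authors aligned the reads with HISAT2 2.1.0 and quantified transcripts with StringTie 1.3.3 on CanFam3.1. The FPKM table deposited by the authors holds linear values adjusted for gene length and depth. The count table deposited by the authors holds raw whole-number counts. The counts of 6 dogs did not follow the FPKM of the same gene IDs (Spearman correlation under 0.5) and were not used.

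The members and all gene lists were chosen with earlier results of these data known. Symbols were taken from 5084 symbol and ID pairs in the supplementary tables. Genes with a mean FPKM above 1 (14257) were tested with limma 3.58.1 in R 4.3.3 on log2(FPKM+1), with the dog as a block over time, a mean-variance trend, two-sided tests and Benjamini-Hochberg adjustment over all genes at 0.05. A fold change on this scale understates that of low genes. Immunophenotypes were fitted together, with a shared spread. Counts of 9 dogs were tested with edgeR 4.0.16 (quasi-likelihood) and DESeq2 1.42.0 (genes with a mean count above 10). The limma, edgeR and DESeq2 fits were tested on simulated data.

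The dog number in the library names gave the pairs, and 031A with 032B by elimination. Deviations from the group means correlated between the 2 libraries of a dog with a median of 0.601 over genes (lowest -0.114, 14 of 15 above 0.1, 0.344 for 031A and 032B), and 9 of 15 dogs matched best with their own partner. No library was a copy of another. Each dog gave 1 sample per timepoint, so that replicates are dogs. The rule for naming genes with values took the members past the threshold. Per class, it also took the member with the highest mean FPKM and the one with the largest absolute log2 fold change. All of these genes were given values in the limma comparison over 15 dogs. In comparisons by immunophenotype only some of them were, and that choice was made after the values were seen. Other members were named after their values were seen. In a wider list of repair genes, those with the smallest p-values were named, except for a gene that is not reported here. The alternatives were other pseudocounts, filters and scalings, no block, leaving out single dogs, dogs 029 and 038 left out, and, chosen after the data were examined, quantile normalization in the 9 dogs, 4 dogs left out for library depth or FPKM sum, and the difference in change between the 9 and 6 dogs. The authors' own comparisons were not used. Figures were drawn with matplotlib 3.10.9 in Python 3.11.15.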

Additional observations from a re-analysis of the deposited data

Results flagged for a closer look

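Of 116 sets of values (29 genes in the groups of 4 to 10 libraries), 12 held a library whose gap to the others exceeded Dixon's critical value, where chance flags about 1 in 20 (5.8 of 116). Among B-cell dogs, dog 029 had the lowest initial values of FANCD2 (3.1 FPKM), FANCI (7.50), CHEK1 (4.53) and TOPBP1 (32.0). Among dogs of unknown immunophenotype, dog 035 had the highest initial values of RAD51AP1 (72.9), FANCM (30.2) and ERCC4 (40.1). Among the 5 dogs of unknown immunophenotype, dog 025 had the lowest six-week values of PMS2 (8.49), PARP1 (16.5) and ERCC3 (13.5). Initial ERCC3 in the same 5 dogs was lowest in dog 024 (20.2), and initial ERCC4 among B-cell dogs was highest in dog 037 (36.7). No member changed in opposite directions in every T-cell and every B-cell dog.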

How the results depend on the processing

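Over 15 dogs, no pseudocount, scaling or left-out dog gave a member called by limma on filtered FPKM. Without the filter on low values 2 members were called lower, with 3017 of 32008 genes called higher and 37 lower, and DESeq2 on counts of 9 dogs called 11. The paired design mattered for the unadjusted count: without the replicate block, 4 members were lower at an unadjusted p under 0.05, and the block changed no call. This count was 0 in the 6 other dogs (where 13 members were negative), 24 with edgeR without a count filter (median -0.68, with the median of all genes at 0.34), 5 without dogs 033, 025, 030 and 036 (chosen after the data were seen), and 11 to 17 when single dogs were left out. Over the same single dogs, 24 to 27 members were negative. In the 6 other dogs MSH6 (0.0251), PARP1 (0.0336) and ERCC3 (0.13) turned positive.

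With single dogs left out, 0 to 5 members were called lower in T-cell dogs and 0 to 3 in the interaction, the highest without dog 028. Between T-cell and B-cell dogs at the initial timepoint 0 to 4 were called higher and 0 to 2 lower, with 2 and 2 without dog 029 (4.5% and 4.62% of all genes) and 4 and 1 without dog 038 (7.29% and 8.81%). Median-of-ratios scaling called 1 higher (FANCA, 1.08, limma adjusted p = 0.0476). The share of all genes called under this scaling was not counted, so that this call cannot be set against it. Leaving out both dogs called 4 higher and 2 lower (11.6% and 12.6% of all genes). Small differences changed sign with single dogs left out, with ranges of -0.46 to 0.0295 for RAD50 and -0.26 to 0.00832 for ERCC3 in the changes of T-cell and unknown dogs. In the interaction the ranges were -0.32 to 0.12 for RAD51AP1, -0.39 to 0.10 for FANCI, -0.31 to 0.18 for RAD50 and -0.48 to 0.10 for ATRIP. Between T-cell and B-cell dogs at the initial timepoint they were -0.17 to 0.35 for RAD51AP1, -0.64 to 0.00362 for FANCI, -0.37 to 0.0346 for RAD50 and -0.30 to 0.0668 for TOPBP1, and at 6 weeks -0.41 to 0.44 for RAD51AP1. Without dogs 029 and 038, RAD50 in T-cell dogs (0.0295), the interaction of RAD51AP1 (0.14), FANCI (0.12) and RAD50 (0.16), and initial ERCC3 (-0.00732) also changed sign, as did the interaction of RAD51AP1 with quantile normalization (0.0434) and median-of-ratios scaling (0.0245). Where the cause is not in the construction of the alternative, it was not tested.

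Few T-cell dogs, low depth (ERCC1 and OGG1 had at most 151 and 30 counts in any library of the 9 dogs) and unknown shares of tumor cells limit these results.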

Other observations

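Before treatment, the repair classes also differed between dogs. The mean log2(FPKM+1) of the recombination class ran from 3.04 in dog 029 to 4.96 in dog 028 (median 4.47), and dog 029 was lowest in 5 of 7 classes. The nucleotide excision class had a narrower range of 3.42 to 4.04. Over the 15 dogs, initial levels of the recombination class and of the proliferation list had a Pearson correlation of 0.863 and a Spearman correlation of 0.525, and Pearson was 0.349 after the 2 dogs with the most extreme proliferation scores were left out, so that the correlation rested on those dogs. For the checkpoint class these values were 0.860, 0.743 and 0.605, and for nucleotide excision 0.172, 0.193 and 0.241.

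Over 378 pairs of members, the changes of 15 dogs correlated positively in 314, with a median Pearson correlation of 0.504.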
